A study of Mus musculus with 44 samples.

Results

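The THY population of the mouse skeletal lineage was compared by its mRNA with the 4 other downstream populations sorted beside it. It is represented by the 2 wild-type THY input libraries of the 44 libraries of the series, and the comparison takes the 8 wild-type input libraries of PCP (pro-chondrogenic progenitors), BLSP (B-cell lymphocyte stromal progenitor), 6C3 and HEC (hepatic leukemia factor expressing cell), 2 of each. The libraries were taken by their labels and not by any measured value. The series profiled m6A, a methyl mark on adenosine in RNA, by SLIM-seq, a method for very small inputs in which RNA is pulled down with an m6A antibody (IP) and set beside the RNA before the pull-down (input). Input libraries therefore serve as mRNA profiles, and sorted cells of a batch were divided between both kinds.

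All 10 libraries came from long bones of untreated wild-type mice at 3 days of age and carry the same batch number, and the study took animals regardless of sex. The strain is C57Bl6 in the labels and C57BL/6J in the study's methods. In the study, wild type is the name of the Mettl3 fl/fl controls without Cre, an allele that the labels of these libraries do not mention. Cells were released by collagenase from lower limb metaphyses that kept the growth plate but not marrow or periosteum, and each population is a gate in a sort rather than a clone or a traced lineage. Every gate excluded cells with CD45, Ter119 or Tie2 and kept cells with AlphaV integrin. THY cells were then Thy1+ 6C3- CD105+ CD200-. PCP differs from THY in the gate by being CD200+, and BLSP is Thy1+ 6C3- CD105-. The 6C3 population is Thy1- 6C3+ CD105+ and HEC is Thy1- 6C3+ CD105-. The study calls its replicates independent biological experiments, while the labels tie no library to an animal, so p-values measure the spread between these samples.

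Thy1 is a glycoprotein anchored to the surface of many fibroblasts, neurons and T cells, and in the skeletal hierarchy it is used to separate stromal cells downstream of the stem cell. The young metaphysis holds cartilage of the growth plate, bone-forming osteoblasts, fibrous tissue continuous with periosteum and tendon, vessel-associated cells and marrow stroma. Each of these makes a characteristic matrix, such as type II collagen in cartilage, bone sialoprotein and osteopontin in bone, and fibrillin microfibrils and proteoglycans in fibrous tissue. In such bulk samples, fewer cells of a type and less RNA per cell cannot be told apart.

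The THY libraries held 19853970 and 42441203 counts and the 8 others between 26361417 and 44219035. Log2 levels of the THY replicates correlated at 0.964 across genes, against 0.958 for the closest pairing of a THY library with another population. The same pair of values was 0.968 and 0.963 for BLSP. Replicates correlated less with each other than with another population for PCP (0.959 and 0.963), 6C3 (0.957 and 0.972) and HEC (0.970 and 0.972). One 6C3 library, replicate 1, stood apart from the other 9 on the third principal component. Levels are given as TMM-scaled CPM, the counts of a gene relative to the total of its library, which are comparable between libraries but not between genes, because they are not divided by gene length. Fold changes are on the log2 scale, with their standard error (SE), from edgeR's quasi-likelihood test, and a gene counts as higher or lower at a Benjamini-Hochberg adjusted p under 0.05 over the 19604 genes tested. A mean over populations is a mean of their log2 levels, so its fold change can lie far from a ratio of mean CPM.

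The genes of the sorting antigens were examined first as a check of the labels. Thy1 was measured at 24.2 and 35.5 CPM in THY, 17.97 and 25.7 in PCP, and 32.5 and 25.1 in BLSP, but at 0.0636 to 0.448 CPM in the 4 libraries of 6C3 and HEC. The Thy1+ gates thus stood together, and the fold change of THY over PCP (0.45, SE 0.32) and over BLSP (0.05, SE 0.32) did not pass the test at adjusted p of 0.60 and 0.97. Cd200, whose protein was excluded from THY, was at 8.48 and 9.42 CPM there and at 46.1 to 112 CPM in all 8 others (log2 fold change -2.87, SE 0.21, adjusted p = 2.89e-06). Both THY libraries lay below every other library for this gene, including the populations for which CD200 was not part of the gate.

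Enpep, which encodes the 6C3 antigen, was at 9.08 and 4.87 CPM in THY and at 42.8 to 57.7 CPM in the 6C3 and HEC libraries. Eng, the gene of CD105, was at 91.7 and 107 CPM in THY, near the 98.8 to 125 CPM of the CD105+ gates PCP and 6C3 and above the 18.2 to 33.1 CPM of the CD105- gates BLSP and HEC. These levels followed the gates in each population. The Itgav transcript of AlphaV integrin was at 81.7 and 114 CPM in THY within a range of 64.2 to 119 CPM in the others. Ptprc, the gene of CD45, was under 1 CPM in all 10 libraries. Tek, which encodes the Tie2 receptor used for exclusion, was nevertheless at 6.46 and 6.74 CPM in THY, beside 6.26 and 8.63 in PCP, 3.91 and 1.56 in BLSP, and at most 0.162 CPM in 6C3 and HEC. The plot of the sorting genes by library shows these separate levels.

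**Figure D1:**
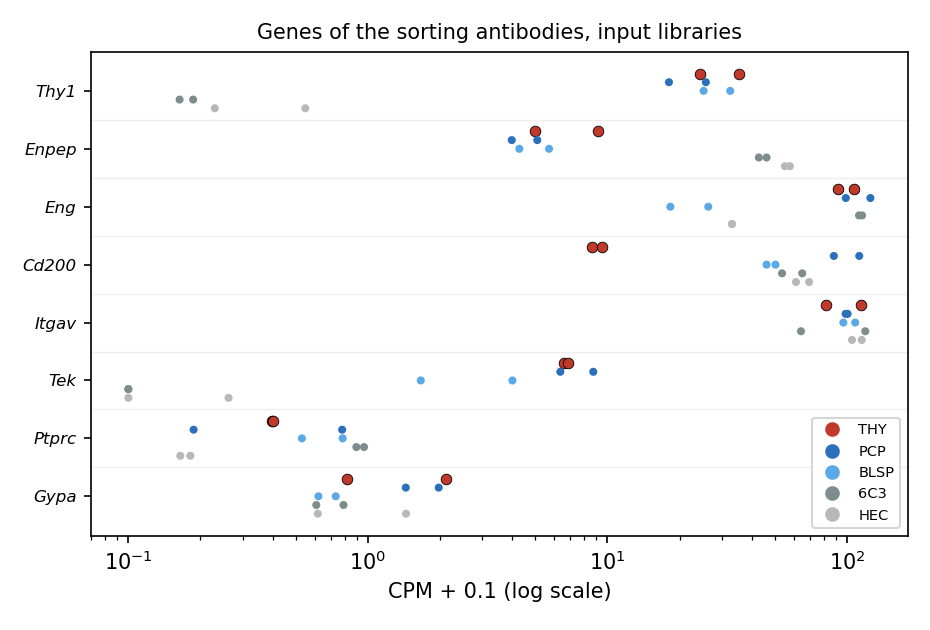
Normalised level of the genes of the sorting antigens in each of the 10 input libraries, as CPM + 0.1 on a log axis, with libraries grouped by population. Thy1 is high in THY, PCP and BLSP and under 1 CPM in 6C3 and HEC, and both THY libraries are the lowest for Cd200.

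Against the equal-weight mean of the 4 other populations, 581 genes were higher in THY (2.96% of genes tested) and 470 were lower (2.40%). Of those higher, 371 genes (1.89%) had both THY libraries above all 8 others, and of those lower, 304 genes (1.55%) had both below all 8. Without the test, both THY libraries lay above all 8 others for 5.08% of genes and below for 4.54%. The first group held 353 protein-coding genes and a median log2 fold change of 1.27, and the second 282 protein-coding genes and a median of -1.66. Because the call selects genes that differ, these medians describe the groups and are not a test. Among the 371 genes, the other population with the highest mean level was PCP for 168, BLSP for 100, 6C3 for 56 and HEC for 47. These are 45.3%, 27.0%, 15.1% and 12.7% of the group, where over all genes tested the shares were 26.1%, 24.9%, 23.1% and 25.9%. With the 8 libraries treated as a single group, whose spread then includes the differences between the 4 populations, 54 genes were called in all. Without THY replicate 1 the calls numbered 338, and without THY replicate 2 they numbered 416.

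The 12 named genes with the largest increase in THY included surface and matrix proteins known from fibroblasts. Dpp4 (chr2:62330073-62412231, GRCm38, minus strand), a surface dipeptidase also called CD26 that is found on fibroblasts of loose connective tissue, was at 60.7 and 45.1 CPM in THY. In the others it ranged from 0.163 to 11.2 CPM with a median of 4.23 (log2 fold change 4.02, SE 0.36, adjusted p = 1.44e-05). Pi16 (chr17:29317680-29330593, plus strand), a secreted peptidase inhibitor of the same fibroblasts, was at 79.1 and 92.5 CPM against 1.17 to 43.1 CPM with a median of 13.7 (3.53, SE 0.17, adjusted p = 2.45e-07). Within the others, Pi16 was 25.6 to 43.1 CPM in PCP and BLSP and under 2 CPM in 6C3 and HEC, so the groups did not overlap but the Thy1+ gates were nearest.

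Mfap5 (chr6:122505845-122529290, plus strand), a glycoprotein of elastic microfibrils, was at 1563 and 1303 CPM in THY and at 30.5 to 500.0 CPM in the others, with a median of 162 (log2 fold change 3.39, SE 0.17, adjusted p = 2.45e-07). Its levels fell in the order PCP (500.0 and 342), BLSP (278 and 232), 6C3 (91.9 and 78.1) and HEC (46.7 and 30.5), with no overlap between neighbours in that order. Efemp1, the matrix protein fibulin-3, was at 28.8 and 30.3 CPM against 1.02 to 14.4 CPM (3.08, SE 0.22, adjusted p = 2.89e-06). Against BLSP alone Efemp1 did not pass edgeR's quasi-likelihood test (1.26, SE 0.32, adjusted p = 0.052). Ly6a, the surface antigen Sca-1, was at 269.3 and 270.4 CPM against 16.5 to 73.0 CPM (2.91, SE 0.22, adjusted p = 4.54e-06). Ly6a belongs to a family of similar genes, and reads shared with its relatives could not be told apart here.

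Ambn, which encodes the matrix protein ameloblastin of tooth enamel, had the largest increase of these 12 genes. It was at 25.6 and 18.2 CPM in THY and at 0 to 0.954 CPM in the 8 others, where both HEC libraries held 0 counts (log2 fold change 7.05, SE 0.37, adjusted p = 9.81e-07). The value over HEC alone, 12.6, is set by the fit to these 0 counts and raises the 7.05. Over PCP, BLSP and 6C3 the log2 fold changes of Ambn were 5.67, 4.86 and 5.08. Wnt2, a secreted Wnt ligand, was at 12.5 and 15.7 CPM in THY against 0.163 to 4.04 CPM (3.77, SE 0.32, adjusted p = 1.07e-05). The remaining genes of this group were the collectin Colec10, the hydrogen peroxide producing oxidase Duox1, the adhesion molecule Cadm3, the transmembrane protein Tmeff2 and the interferon-inducible Ifi205. Their log2 fold changes ran from 2.95 for Ifi205 to 4.22 for Colec10, and both THY libraries exceeded all 8 others for each. By edgeR's quasi-likelihood test, Tmeff2 did not pass against PCP alone (0.72, SE 0.32, adjusted p = 0.33). Colec10 did not pass against PCP (2.73, adjusted p = 0.076) or BLSP (2.87, adjusted p = 0.063). Ifi205 has near-identical relatives, and Cadm3 shares its position with Ackr1 and Aim2, so their counts are less certain. Dpp4 also overlaps a predicted gene on the other strand.

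**Figure D2:**
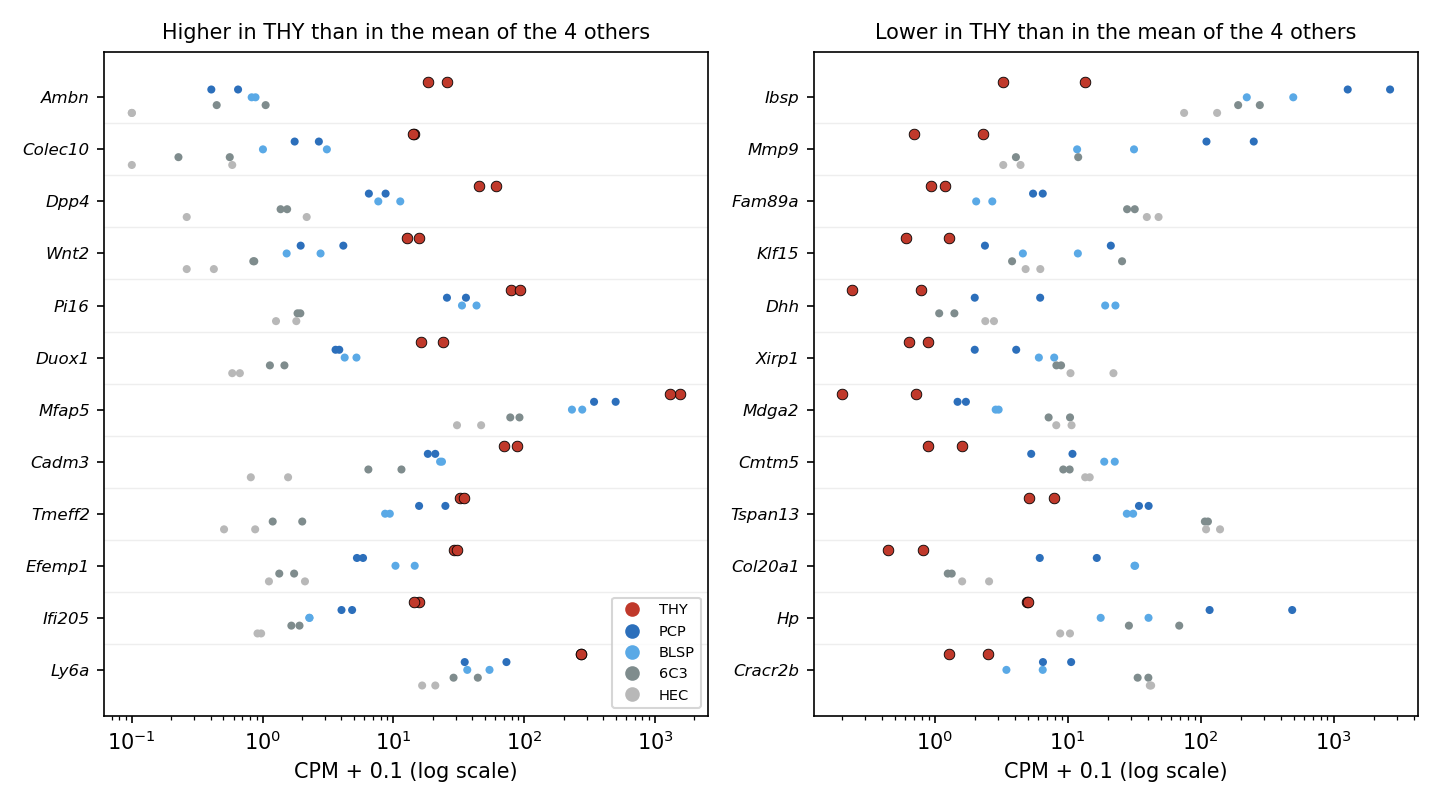
Normalised level of the 24 genes named for the comparison of THY with the mean of PCP, BLSP, 6C3 and HEC, as CPM + 0.1 on a log axis, with a point per library coloured by population. For each gene both THY points lie beyond all 8 others, above for the genes led by Ambn and below for those led by Ibsp.

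Among the genes with the largest decrease, Ibsp stood first. It encodes bone sialoprotein, a mineral-binding protein of osteoblasts, and lies at chr5:104299171-104311469 on the plus strand. Ibsp was at 13.4 and 3.14 CPM in THY. The others reached 75.0 to 2663 CPM with a median of 250.5 (log2 fold change -5.49, SE 0.63, adjusted p = 1.35e-04). PCP was highest at 2663 and 1279 CPM and HEC lowest at 75.0 and 133 CPM, still above both THY libraries.

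The other 11 named genes with a decrease differed in which population was highest. Tspan13, a membrane tetraspanin, was at 7.84 and 4.99 CPM in THY and at 27.7 to 139.9 CPM in the others (log2 fold change -3.30, SE 0.24, adjusted p = 3.13e-06). Fam89a was at 1.09 and 0.832 CPM against 1.95 to 48.1 CPM (-3.61, SE 0.27, adjusted p = 4.54e-06). For both, 6C3 and HEC were high and BLSP was nearest to THY. Col20a1, a collagen chain, was at 0.345 and 0.716 CPM in THY, 31.7 and 32.0 in BLSP, 6.06 and 16.4 in PCP, and 1.15 to 2.46 CPM in 6C3 and HEC (-3.25, SE 0.45, adjusted p = 6.31e-04). Dhh, the hedgehog ligand of Schwann cells, was at 0.691 and 0.139 CPM in THY and highest in BLSP at 19.0 and 22.8 CPM (-3.44, SE 0.61, adjusted p = 0.0036).

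Mmp9, a gelatinase of osteoclasts and other cells, was at 2.22 and 0.601 CPM in THY against 3.17 to 250.9 CPM (log2 fold change -3.84, SE 0.64, adjusted p = 0.0024), with PCP far above the rest. Hp, the haemoglobin-binding protein haptoglobin, was at 4.83 and 4.92 CPM against 8.68 to 489 CPM (-3.20, SE 0.55, adjusted p = 0.003). The transcription factor Klf15 was at 1.18 and 0.508 CPM against 2.28 to 25.5 CPM (-3.54, SE 0.94, adjusted p = 0.043). These calls were the least firm. Without THY replicate 1 or 2, Klf15 (adjusted p = 0.19 and 0.35) and Hp (0.063 and 0.070) no longer passed edgeR's quasi-likelihood test, and without replicate 2 neither did Mmp9 (0.068) or Dhh (0.087). The group was completed by the actin-binding Xirp1, the adhesion protein Mdga2, the membrane protein Cmtm5 and the calcium channel regulator Cracr2b, with log2 fold changes of -3.40, -3.39, -3.36 and -3.09. Dhh overlaps Rhebl1 and Xirp1 overlaps Cx3cr1 on the same strand, so reads there could be divided between genes.

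The comparison and the gene lists were chosen with earlier results of these data known, so the counts below describe the lists and are not independent evidence. Of the 24 fibroblast genes tested, 14 were higher in THY, 0 were lower and 10 did not pass, against the 2.96% and 2.40% of all genes. The list had a median log2 fold change of 1.04, beside 0.02 over all genes. At an unadjusted p under 0.05 the counts were 17 and 0, and DESeq2 called 14 and 0. Of the 14 genes, 13 had both THY libraries above all 8 others, and the exception was the proteoglycan Lum. Beside Dpp4, Pi16, Mfap5 and Ly6a, already described, the sialomucin Cd34 was at 569 and 496 CPM against 109.8 to 217 CPM (1.83, SE 0.15, adjusted p = 9.46e-06). Aspn, a leucine-rich proteoglycan, was at 3532 and 3034 CPM against 196 to 2524 CPM (2.01, SE 0.13, adjusted p = 2.14e-06).

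Postn, the periosteal matrix protein periostin, was at 3781 and 2659 CPM in THY, 2013 to 2144 CPM in PCP and BLSP, and 223 to 418 CPM in 6C3 and HEC (log2 fold change 1.94, SE 0.19, adjusted p = 3.83e-05). Dpt, the collagen-associated dermatopontin, was at 552 and 548 CPM against 85.6 to 386 CPM (1.67, SE 0.23, adjusted p = 5.18e-04). The transcription factors Osr1 (1.59, SE 0.17) and Prrx1 (1.13, SE 0.15), which mark limb connective tissue, were also higher, at adjusted p of 9.25e-05 and 5.01e-04 by edgeR's quasi-likelihood test. Pdgfra, a receptor widely used to mark fibroblasts, was at 156 and 139 CPM against 80.4 to 166 CPM and did not pass (0.45, SE 0.21, adjusted p = 0.28). The list was therefore not raised throughout. With the 8 libraries as a single group, 3 of its genes were called.

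In the list of 25 fibrous matrix genes, 7 were higher (28%, beside 2.96% of all genes), 0 were lower and the median was 0.44. At an unadjusted p under 0.05 the counts were 14 and 1, and DESeq2 called 9 and 1. Fbn1, the microfibril protein fibrillin-1, was at 293 and 385 CPM against 44.3 to 143 CPM (log2 fold change 2.09, SE 0.16, adjusted p = 4.59e-06). Vcan, the large proteoglycan versican, was at 570.4 and 507 CPM against 106 to 237 CPM (1.73, SE 0.15, adjusted p = 1.27e-05). Both were clear of all 8 other libraries. Type V collagen chain Col5a3, type XIV collagen Col14a1 and the microfibril protein Mfap4 were likewise above all others. Col3a1 and the elastin gene Eln passed with overlapping libraries, Col3a1 at 21975 and 25693 CPM in THY and up to 24235 CPM in PCP. With the 8 libraries as a single group, 2 of the list were called.

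**Figure D3:**
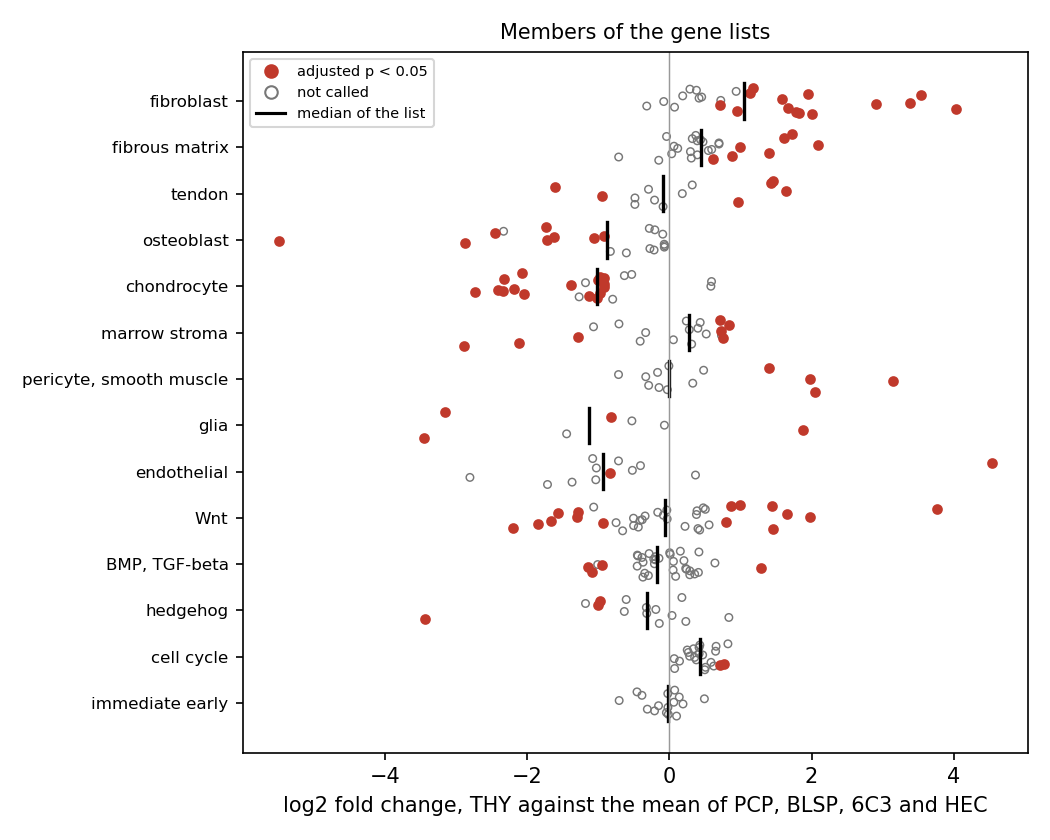
Log2 fold change of THY over the mean of PCP, BLSP, 6C3 and HEC for the genes of each list drawn. Each point is a gene, filled red where the adjusted p was under 0.05 and open otherwise, and a black bar marks the list median. The fibroblast bar sits at 1.04 and the chondrocyte bar at -1.02, and 2 genes without a usable SE, Mepe and Foxd3, are not drawn.

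Of 13 tendon and ligament genes, 4 were higher (30.8%, beside 2.96% of all genes) and 2 lower (15.4%, beside 2.40%), with a median of -0.09. Tnmd, the tendon membrane protein tenomodulin, was at 2069.5 and 1405 CPM in THY against 352 to 1190.4 CPM (log2 fold change 1.45, SE 0.20, adjusted p = 4.86e-04). Kera, the proteoglycan keratocan, was at 310.1 and 231 CPM against 45.7 to 209 CPM (1.64, SE 0.15, adjusted p = 1.85e-05), and Thbs4, a thrombospondin of tendon, was at 1224 and 1005 CPM against 276 to 489.6 CPM (1.43, SE 0.17, adjusted p = 1.77e-04). In all 3 the THY libraries were clear of the others. Scx, the tendon transcription factor scleraxis, was at 42.1 and 73.3 CPM against 8.33 to 68.0 CPM and did not pass (0.32, SE 0.47, adjusted p = 0.79). The 2 lower genes were Prg4 and Gdf5. Prg4, the joint lubricant lubricin, was at 232 and 272 CPM in THY, 111 to 170 CPM in PCP and BLSP and 1456 to 8030.1 CPM in 6C3 and HEC (-1.60, SE 0.28, adjusted p = 0.0034). Gdf5, a growth factor of forming joints, was at 8.24 and 8.06 CPM in THY, 4.62 to 6.92 CPM in PCP and BLSP and 28.8 to 57.1 CPM in 6C3 and HEC (-0.95, SE 0.23, adjusted p = 0.025). For both genes THY thus lay above PCP and BLSP and below 6C3 and HEC, and 1 tendon gene was lower without the 6C3 population and 0 without HEC.

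Of 20 osteoblast genes, 0 were higher and 8 were lower (40%, beside 2.40% of all genes), with a list median of -0.88. All 8 had both THY libraries below the others. The unadjusted counts were 0 and 9, as were those of DESeq2. The 8 were the matrix proteins Ibsp, Spp1, Dmp1 and Omd, the membrane protein Ifitm5, the peptidase Phex, the parathyroid hormone receptor Pth1r and the sphingomyelinase Smpd3. Spp1, osteopontin, was at 467 and 282 CPM in THY against 571 to 5978 CPM (log2 fold change -1.74, SE 0.40, adjusted p = 0.019). Dmp1, a phosphoprotein of osteocytes, was at 5.03 and 3.07 CPM against 11.1 to 70.5 CPM (-2.87, SE 0.34, adjusted p = 1.77e-04).

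Runx2, the osteoblast transcription factor, did not pass against the mean. It was at 35.5 and 35.6 CPM in THY, 74.2 to 94.8 CPM in PCP and BLSP and 12.8 to 24.5 CPM in 6C3 and HEC (log2 fold change -0.09, SE 0.19, adjusted p = 0.87). Sp7, osterix, lay between the same pairs of populations, at 17.6 and 18.5 CPM. Collagen type I, made by both bone and fibrous tissue, was also within the range of the others, Col1a1 at 70000.5 and 89861 CPM against 68268 to 149309 CPM (-0.27, SE 0.16, adjusted p = 0.42). Treating the 8 libraries as a single group ended the calls of all 8 lower genes.

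Cartilage genes were lower in THY. Of 23 tested, 16 were lower (69.6%, beside 2.40% of all genes) and 0 higher, with a median of -1.02. The unadjusted and DESeq2 counts were both 19 and 0. Both THY libraries lay below all 8 others for 10 of the 16. Col2a1, the main cartilage collagen, was at 4725 and 4232 CPM in THY against 10979.7 to 87224 CPM with a median of 25653 (log2 fold change -2.73, SE 0.28, adjusted p = 6.43e-05). PCP and BLSP stood at 10979.7 to 16359 CPM and 6C3 and HEC at 34946 to 87224 CPM. Col9a1 and Col9a2, chains of the collagen that coats type II fibrils, had log2 fold changes of -2.33 (SE 0.22) and -2.41 (SE 0.25), at adjusted p of 2.94e-05 and 5.44e-05 by edgeR's quasi-likelihood test.

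Ucma, a secreted cartilage protein, was at 95.9 and 59.2 CPM in THY against 174 to 433 CPM (log2 fold change -2.07, SE 0.28, adjusted p = 5.07e-04). Sox9, the master regulator of chondrocytes, and Acan, the proteoglycan aggrecan, did not pass. Sox9 was at 2017 and 2276 CPM in THY, 1521 to 2213 CPM in PCP and BLSP and 4123 to 6437 CPM in 6C3 and HEC (-0.53, SE 0.19, adjusted p = 0.15). Acan was at 295 and 339 CPM against 339.9 to 901 CPM (-0.80, SE 0.24, adjusted p = 0.079). Summed over the list, THY libraries held 11153 and 11479 CPM and the others 19997 to 119560 CPM. With the 8 libraries as a single group, 1 cartilage gene was called, and without the HEC population 8 were lower.

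Of 19 marrow stroma genes, 4 were higher (21.1%, beside 2.96% of all genes) and 3 lower (15.8%, beside 2.40%), with a median of 0.28. Apoe, a lipid carrier, was at 31.1 and 26.9 CPM in THY and at 95.5 to 159 CPM in the others without overlap (log2 fold change -2.12, SE 0.21, adjusted p = 3.95e-05). Cxcl12, the chemokine that retains blood progenitors, was at 186 and 149.7 CPM in THY, within the range of the others at 110.5 to 2268 CPM, and was lower by the test (-1.28, SE 0.27, adjusted p = 0.012), with PCP at 2268 and 1079 CPM. Csf1, the growth factor of macrophages and osteoclasts, was at 459 and 476 CPM against 164 to 436 CPM (0.76, SE 0.14, adjusted p = 0.0049). The count of 4 higher genes was 0 without the HEC population and 0 with the 8 libraries as a single group, and 2 under the replicate block. The count of 3 lower genes was 1 without the PCP population and 1 with a single group. Lepr, which marks marrow stroma, was at 8.14 and 4.37 CPM against 7.04 to 47.5 CPM and did not pass (-1.07, SE 0.32, adjusted p = 0.080).

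Of 13 pericyte and smooth muscle genes, 4 were higher (30.8%, beside 2.96% of all genes) and 0 lower, with a median of -0.01. The 4, all known from pericytes, were the G-protein regulator Rgs5, the potassium channel parts Kcnj8 and Abcc9, and Higd1b. Rgs5 was at 990.1 and 1227 CPM in THY, 1311 and 2239.9 in PCP, 569 and 780.3 in BLSP and 112 to 259 CPM in 6C3 and HEC (log2 fold change 1.40, SE 0.21, adjusted p = 0.0012). A PCP library was the highest of all 10 for each of the 4. The unadjusted test and DESeq2 also called 4 higher and 0 lower, but with the 8 libraries as a single group 0 were called. The contractile genes Acta2 (-0.03), Tagln (-0.01) and Myh11 (-0.71) did not pass.

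Markers of other cells that a sort could carry over were measured in the same libraries. The 17 leukocyte genes tested summed to 20.0 and 39.4 CPM in THY and 5.44 to 41.9 CPM in the others, with 0 called by edgeR, 4 higher and 0 lower at an unadjusted p under 0.05, and 1 higher by DESeq2. The 8 erythroid genes summed to 27.6 and 108 CPM against 19.4 to 152 CPM, and counts of called genes were 0 in edgeR, in DESeq2 and at an unadjusted p under 0.05. Of 16 skeletal muscle genes 1, the factor Myog, was higher (6.25%, beside 2.96% of all genes), at 0.888 and 1.29 CPM. The list summed to 32.6 and 35.9 CPM against 24.3 to 38.3 CPM. The median of this list was 1.07, with 6 higher and 0 lower at an unadjusted p under 0.05 and 2 higher by DESeq2. Without the HEC population 0 of the list were called. Among 7 osteoclast genes Mmp9 alone was called (14.3%, beside 2.40% of all genes lower), as given above. The part of these cells in the differences was not tested.

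The endothelial and glial lists were uneven between populations, and 0 of their genes were called with the 8 libraries as a single group. The 12 endothelial genes summed to 56.5 and 70.9 CPM in THY and 41.4 to 306 CPM in the others, with 1 gene higher (Tek) and 1 lower (Flt1). Each was 8.33% of the list, beside 2.96% higher and 2.40% lower over all genes. Pecam1, an endothelial junction protein, was at 1.28 and 2.59 CPM in THY, 52.9 and 43.7 in PCP, and 0.855 to 3.08 CPM in the other 6 libraries. The 8 glial genes summed to 71.6 and 84.8 CPM in THY and 61.0 to 954 CPM in the others. Of these, 1 was higher (Gfap, 12.5% of the list) and 3 lower (Sox10, S100b and Cdh19, 37.5%). Mbp, a protein of the myelin sheath, was at 21.9 and 20.1 CPM in THY, 722 and 702 in BLSP, 47.2 and 109.7 in PCP and 1.35 to 2.88 CPM in 6C3 and HEC. Mbp did not pass edgeR's test against the mean of log2 levels (log2 fold change -0.07, SE 0.25, adjusted p = 0.94). Its direction rested on the BLSP libraries, since without that population the value was 1.605 (adjusted p = 0.0030).

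Wnt pathway genes moved both ways. Of 36 tested, 8 were higher (22.2%, beside 2.96% of all genes) and 7 lower (19.4%, beside 2.40%), with a median of -0.06. The ligands Wnt2, Wnt5a, Wnt5b and Wnt9a, the potentiator Rspo2, its receptor Lgr5, and the secreted modulators Dkk2 and Sfrp4 were higher. Wnt9a was at 66.4 and 77.3 CPM in THY against a narrow 31.4 to 42.1 CPM in the others (log2 fold change 0.99, SE 0.15, adjusted p = 0.0012). Rspo2 was at 22.8 and 23.3 CPM against 2.30 to 13.04 CPM (1.98, SE 0.23, adjusted p = 1.37e-04). Lower were the secreted modulators Frzb, Wif1, Sfrp5 and Notum, the receptors Fzd9 and Lgr6, and the transcription factor Lef1. Frzb was at 12.9 and 8.89 CPM against 28.2 to 82.5 CPM (-2.20, SE 0.25, adjusted p = 1.11e-04). Axin2, a common target of the pathway, had a log2 fold change of -0.66 and did not pass. Without the HEC population 5 genes of the list were higher and 7 lower. With the 8 libraries as a single group, 1 was higher and 0 were lower.

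Of 34 BMP and TGF-beta genes, 1 was higher (2.94%, beside 2.96% of all genes) and 3 lower (8.82%, beside 2.40%), with a median of -0.17. Without the HEC population 1 was lower, and with the 8 libraries as a single group 0 were called. The BMP and activin antagonist Fst was at 78.2 and 72.1 CPM against 11.03 to 92.6 CPM (log2 fold change 1.28, SE 0.20, adjusted p = 0.0017), and the ligands Bmp7, Gdf5 and Gdf10 were lower at -1.08, -0.95 and -1.14. Of 14 hedgehog genes, 3 were lower (21.4%, beside 2.40% of all genes) and 0 higher, with a median of -0.32. The counts at an unadjusted p under 0.05 were 5 lower and 1 higher, DESeq2 called 5 lower, and with the 8 libraries as a single group 0 were called. The receptor and target Ptch1 was at 10.7 and 10.8 CPM in THY against 15.9 to 26.5 CPM in the others, without overlap (-0.97, SE 0.20, adjusted p = 0.0095). The hedgehog-binding Hhip (-1.004, SE 0.17, adjusted p = 0.0025) and the ligand Dhh were also lower. Gli1, the target transcription factor, was at 11.3 and 15.9 CPM against 12.2 to 29.1 CPM and did not pass (-0.63, SE 0.20, adjusted p = 0.10).

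Among 22 cell cycle genes, 2 were higher, the cyclins Ccnb1 (log2 fold change 0.77, SE 0.16, adjusted p = 0.012) and Ccna2 (0.72, SE 0.19, adjusted p = 0.040), with a median of 0.42. The 2 were 9.09% of the list, beside 2.96% of all genes. At an unadjusted p under 0.05 the counts were 11 higher and 0 lower, and DESeq2 called 4 higher. The count was 0 without the HEC population and with the 8 libraries as a single group, 1 under the replicate block and 9 without the PCP population. Mki67, the proliferation marker Ki-67, was at 47.9 and 37.6 CPM against 17.8 to 44.8 CPM and did not pass (0.65, SE 0.24, adjusted p = 0.15). For the 16 immediate early genes, which respond to tissue digestion, the median was -0.02 and 0 were called by edgeR or DESeq2, with 0 higher and 2 lower at an unadjusted p under 0.05.

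THY and PCP differ in the gate by CD200 alone. Between them 166 genes were higher in THY (0.847%) and 351 lower (1.79%), and these comparisons share the THY libraries with those against the other populations. Those higher included Ambn (log2 fold change 5.67, SE 0.54, adjusted p = 1.35e-04), Dpp4 (2.82, SE 0.54, adjusted p = 0.012) and F13a1, a coagulation factor subunit also made by macrophages. F13a1 was at 125 and 119 CPM in THY and 14.6 and 14.8 CPM in PCP (3.05, SE 0.27, adjusted p = 8.14e-05). It was not particular to THY, since 6C3 held 161 and 129 CPM. The vasoactive peptide Edn2 (2.95), the secreted protein Slurp1 (2.93) and the matrix protein Coch (2.83) were also higher, and Slurp1 overlaps Them6 on the other strand. Slurp1 was at 7.99 and 12.4 CPM in THY but at 21.8 and 19.0 in HEC and 8.08 and 14.1 in 6C3. By edgeR's quasi-likelihood test, Edn2 did not pass against HEC (0.61, adjusted p = 0.51) nor Coch against BLSP (0.85, adjusted p = 0.46). Without THY replicate 1 or 2, 169 and 178 genes were called in place of 517.

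Bone genes and endothelial genes were higher in PCP. Of 20 osteoblast genes, 12 were lower in THY and 1, the transcription factor Dlx3, was higher, with a median of -1.94 beside -0.03 over all genes. Runx2 was lower (log2 fold change -1.38, SE 0.24, adjusted p = 0.0063), as were Sp7 (-1.85, SE 0.30, adjusted p = 0.0039), the phosphatase Alpl (-2.22, SE 0.25, adjusted p = 2.90e-04) and Ibsp (-7.93, SE 0.74, adjusted p = 8.14e-05). The chemokine Cxcl12 was lower too (-3.32, SE 0.34, adjusted p = 1.47e-04). Of 12 endothelial genes, 8 were lower, with a median of -4.63. The endothelial transcription factor Sox17 was at 7.57 and 8.28 CPM in PCP and at 0 in both THY libraries, at least 51.1-fold lower by a floor of 3 counts per library. The receptor Robo4 was at 6.89 and 6.81 CPM in PCP and at 0 in THY, at least 46.0-fold lower. The vessel protein Mmrn1 was at 36.2 and 23.6 CPM in PCP and 0.197 and 0.277 CPM in THY. These genes moved together with Pecam1, Tie1, Kdr and Cdh5, and the part of endothelial cells in the other differences between THY and PCP was not tested.

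Of the fibroblast genes, 7 of 24 were higher in THY than in PCP, with a median of 0.64. The 7 were Ly6a, Cd34, Dpp4, Pi16, Clec3b, Osr1 and Mfap5. Aspn (log2 fold change 0.42, SE 0.19, adjusted p = 0.35) and Postn (0.64, SE 0.27, adjusted p = 0.31), higher against the mean of 4, did not pass here. Cartilage genes were lower for 8 of 23, including Col2a1 at -1.75 (SE 0.30, adjusted p = 0.0063). Bmp4, a ligand, was at 75.6 and 86.3 CPM in THY and 35.7 and 27.1 CPM in PCP (1.37, SE 0.21, adjusted p = 0.0026).

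BLSP is CD105- where THY is CD105+, and its gate as given has no CD200 step. In this comparison 242 genes were higher in THY (1.23%) and 297 lower (1.51%). Eng was higher in THY as its gate has it (log2 fold change 2.16, SE 0.23, adjusted p = 2.06e-04), and Cd200 was lower (-2.42, SE 0.22, adjusted p = 6.21e-05). Glial genes were lower for 5 of 8, with a median of -4.50 beside -0.03 over all genes. Sox10, the transcription factor of Schwann cells, was at 0.493 and 0.370 CPM in THY and 29.8 and 25.95 CPM in BLSP (-6.04, SE 0.83, adjusted p = 0.0013). Gfra3, a receptor of the GDNF family found on sensory neurons and Schwann cells, was at 15.6 and 12.2 CPM in BLSP, 20.9 and 35.2 CPM in PCP and at 0 in both THY libraries, at least 82.2-fold lower than BLSP and at least 141-fold lower than PCP. Tmprss5, Cldn19, Igsf11 and Plxnb3 were at most 0.691 CPM in THY and 7.41 to 34.7 CPM in BLSP. The part of glial cells in the other differences was not tested.

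Higher in THY than in BLSP were Ambn (log2 fold change 4.86, SE 0.52, adjusted p = 3.01e-04), Rab37, a small GTPase of secretion (3.40, SE 0.27, adjusted p = 1.09e-05), F13a1 (3.35, SE 0.27, adjusted p = 1.50e-05), the sialidase Neu2 (3.03, SE 0.35, adjusted p = 3.92e-04), Wnt2 (2.79) and Ifi205 (2.77). Rab37 was at 26.8 and 22.1 CPM in THY and 2.12 and 2.49 CPM in BLSP, but at 84.0 and 58.8 CPM in 6C3. Rab37 and Neu2 overlap genes on the other strand, and the strand setting of the counting is not given in the sources used here. Of 24 fibroblast genes, 8 were higher, with a median of 0.67. Osteoblast genes were lower for 6 of 20 and higher for 1, and cartilage genes were lower for 6 of 23. Without THY replicate 1 or 2, 186 and 178 genes were called in place of 539, and without BLSP replicate 1 or 2, 246 and 179.

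**Figure D4:**
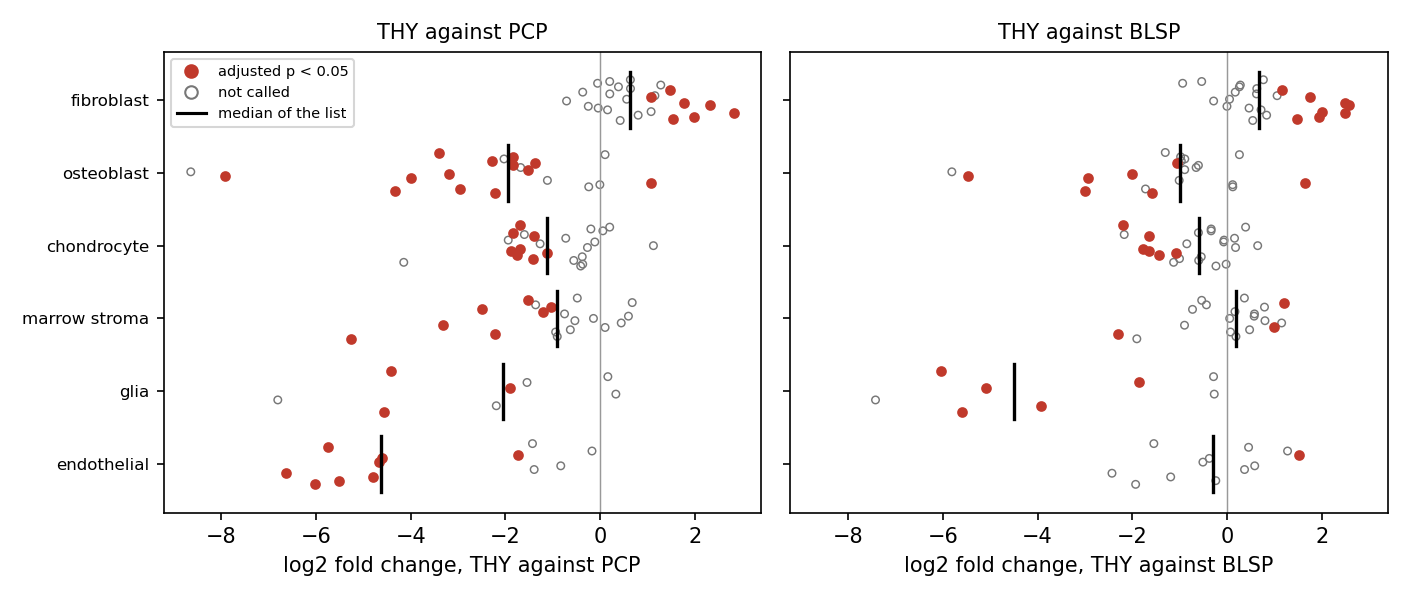
Log2 fold change of THY over PCP and over BLSP for the fibroblast, osteoblast, chondrocyte, marrow stroma, glia and endothelial lists. Each point is a gene, filled red where the adjusted p was under 0.05, and a black bar marks the list median. Any gene without a usable SE is not drawn. The endothelial bar is at -4.63 against PCP and the glial bar at -4.50 against BLSP.

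Against the populations sorted as Thy1- 6C3+, more genes passed. Over 6C3, 718 genes were higher (3.66%) and 802 lower (4.09%), and over HEC 1044 were higher (5.33%) and 881 lower (4.49%). Fibroblast genes were higher for 13 of 24 over 6C3, and for 15 of 24 over HEC with 1, Gas1, lower. Their medians were 1.34 and 1.82, each beside 0.02 over all genes. Cartilage genes were lower for 17 of 23 in both comparisons, with medians of -1.43 and -1.90. Col2a1 had log2 fold changes of -3.63 (SE 0.33, adjusted p = 2.22e-05) over 6C3 and -4.10 (SE 0.33, adjusted p = 5.52e-06) over HEC.

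Osteoblast genes differed by population. Over HEC 5 were higher, namely Runx2, Sp7, Alpl, Bglap and Bglap2, and 6 were lower, and over 6C3 8 were lower. Bglap and Bglap2 are near-identical copies whose reads the counting could divide between them. Runx2 was 1.25 (SE 0.24, adjusted p = 0.0040) over HEC and 0.82 (SE 0.24, adjusted p = 0.053) over 6C3. Cell cycle genes were higher for 10 of 22 over HEC, with a median of 0.96. Prg4 was lower in both comparisons, at -3.33 (SE 0.35, adjusted p = 5.72e-05) over 6C3 and -4.84 (SE 0.37, adjusted p = 4.19e-06) over HEC.

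IP libraries of the same sorted cells gave a second set of libraries not used above. They repeat the library making and not the animals, and their levels also carry enrichment for m6A. Among 22285 genes tested, 250 were higher in THY (1.12%) and 176 lower (0.790%) than in the mean of the 4 others. Of the 371 genes above all others in input, 368 were tested in IP, 356 (96.7%) had a log2 fold change above 0 beside 50.1% of all genes, and 162 (44.0%) were called higher. Of the 304 below all others, 302 were tested, 280 (92.7%) were under 0 beside 49.9%, and 75 (24.8%) were called lower.

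The input and IP values of the leading genes lay close for several matrix and surface genes. Mfap5 was 3.39 (SE 0.17) in input and 3.19 (SE 0.14, adjusted p = 2.65e-09) in IP, Ly6a 2.91 (SE 0.22) and 2.71 (SE 0.17, adjusted p = 2.92e-07), and Ambn 7.05 (SE 0.37) and 6.52 (SE 0.66, adjusted p = 3.08e-05). Ibsp was -5.49 (SE 0.63) in input and -5.19 (SE 0.68, adjusted p = 2.72e-04) in IP, and Cd200 -2.87 (SE 0.21) and -3.14 (SE 0.28, adjusted p = 6.79e-06). For 7 of the 24 named genes the IP value was not past the threshold. They were Colec10 (3.21, SE 0.82, adjusted p = 0.057), Wnt2 (3.83, SE 0.95, adjusted p = 0.054) and Duox1 (1.29, SE 0.68, adjusted p = 0.49) among the higher genes. Among the lower genes they were Col20a1 (-1.67, SE 0.58, adjusted p = 0.22), Dhh (-1.97, SE 0.91, adjusted p = 0.41), Mdga2 (-1.94, SE 0.97, adjusted p = 0.47) and Klf15 (0.63, SE 1.56, adjusted p = 0.98). Gfra3, at 0 in both THY input libraries, had a log2 fold change of 0.57 (SE 0.52, adjusted p = 0.75) in IP. Sox17 and Robo4, also at 0 in THY input, had 2.16 (SE 1.47, adjusted p = 0.61) and -6.85 (SE 3.06, adjusted p = 0.39) in IP.

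**Figure D5:**
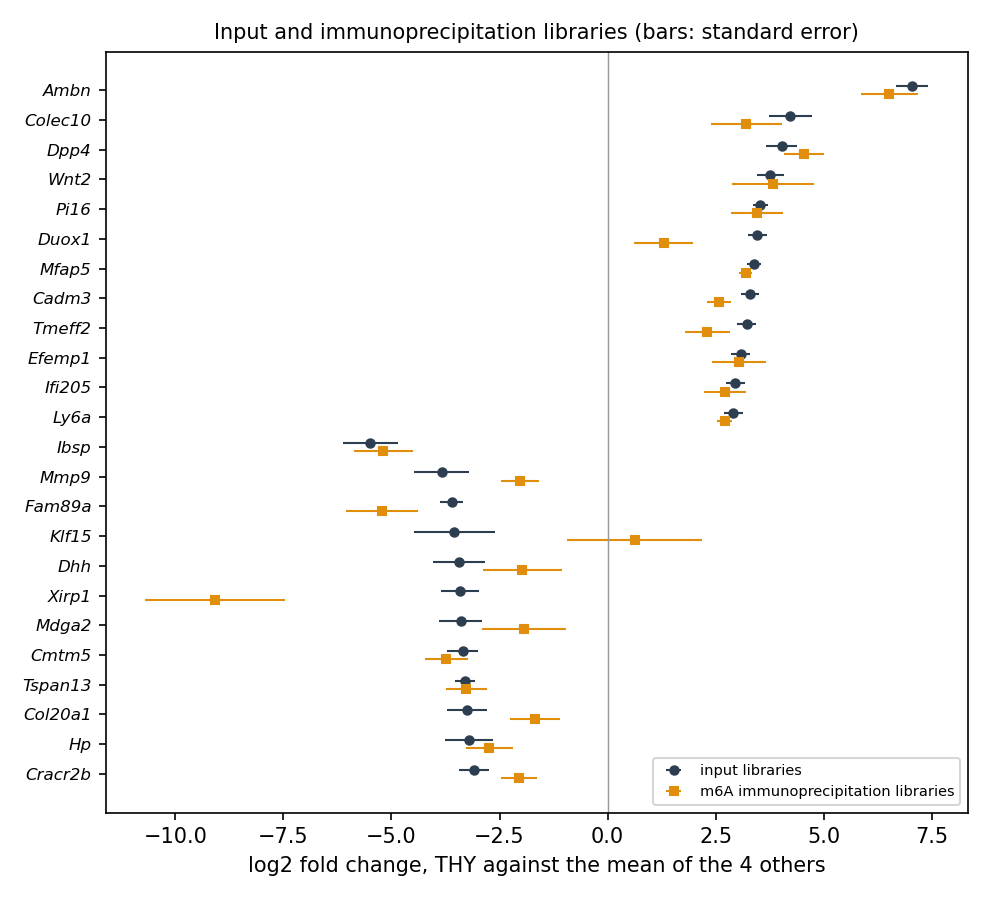
Log2 fold change of THY over the mean of PCP, BLSP, 6C3 and HEC for the 24 named genes in input libraries and in IP libraries, with bars for the SE. Mfap5, Ly6a, Ambn and Ibsp have like values in both, while Klf15 is -3.54 in input and 0.63 in IP.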

How the data were processed

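The measurements are gene counts of 10 wild-type input libraries, 2 each of THY, PCP, BLSP, 6C3 and HEC, with the 10 matching IP libraries for comparison. The authors deposited counts as whole numbers of reads per gene without normalization. The submitters' processing notes name fastp 0.20.1, HISAT2 2.2.1, featureCounts 2.0.1 and GRCm38. The annotation and strand setting are not given in the sources used here. The authors also deposited a pair of tables of their own comparisons, giving fold changes and p-values of Mettl3KO against WT SSCs and the m6A-tagged genes among them, which were not used. The counts cover 46959 entries, of which 128 named 1-Mar or 2-Mar, dates made from symbols and no more than 0.390% of any library, were left out, leaving 46831.

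The tools were edgeR 4.0.16, DESeq2 1.42.0, limma 3.58.1 and the package data.table (version 1.17.8) under R 4.3.3, and Python 3.11.15 with pandas 2.3.3 and matplotlib 3.10.9. Genes passing filterByExpr (19604 in input, 22285 in IP) were TMM-normalized and tested by the quasi-likelihood F test in 1 fit of 5 populations, contrasting THY with the equal-weight mean of the 4 others or with each, with Benjamini-Hochberg adjustment over all genes. The mean of the 4 is a mean of fitted log2 levels. The SE of a log2 fold change was its size over the root of F. Depth was 19853970 to 44219035 counts per library. A floor of 3 counts per library bounds folds against 0 and covers counting error only. Positions come from GENCODE vM21, which matched 18892 tested genes.

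The text names the 12 genes of largest fold change in each direction at an adjusted p under 0.05, with at least 5 CPM on the higher side and both THY libraries beyond all 8 others, and 6 in each direction against PCP and BLSP. Genes with predicted, clone, accession or date names were counted but not named, and genes of the lists may be named too. Some items are not reported here and were left out of the lists. The comparison and the lists were chosen with earlier results of these data known. Alternatives were DESeq2, other size factors, other filters on low counts, robust dispersion, the 8 libraries as 1 group, a replicate block, the study's threshold, and leaving out each library or population. The test was also run on simulated counts in which the populations other than THY shared a single mean per gene. That simulation did not cover differences among those populations. Replicate numbers did not pair the samples.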

Additional observations from a re-analysis of the deposited data

How the results depend on the processing

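The calls depend on how the spread is estimated, since each population has 2 libraries. Of the 24 named genes, 24 kept direction and call in DESeq2, with other size factors, with other filters and with the replicate block; under robust dispersion Klf15 alone did not pass (adjusted p = 0.17). With the 8 libraries as 1 group, 21 of 24 no longer passed edgeR's test. Without the HEC population Klf15 (adjusted p = 0.076), and without BLSP Dhh (0.057), did not pass. THY replicate 1 is the shallowest library, at 19853970 counts.

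Calls numbered 1051 against the mean of 4, 517 against PCP, 539 against BLSP, 1520 against 6C3, 1925 against HEC and 426 in IP, with 371 genes above and 304 below all others. In the same order, the study's threshold (log2 fold change beyond 0.5, unadjusted p under 0.05) gave 3000, 2575, 2534, 4168, 4027 and 2362, with 625 above and 663 below. DESeq2 gave 1644, 984, 1026 and 2354 for the first 4, 889 in IP and 497 below. Without a filter the first 4 were 1702, 1106, 1076 and 2396, and IP was 752. As 1 group of 8, 54 were called, 38 above and 16 below. Without the PCP population 1657 were called, 677 above and 479 below, and without HEC 578. The replicate block gave 959 against the mean, 443, 483, 1326 and 1817 against single populations, 345 above, 280 below and 507 in IP. Over 10 pairs of populations the deviations of same-numbered libraries correlated at -0.201 to 0.109, so the numbers were not taken as pairs. The causes of these shifts were not tested.

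Leaving out each library in turn gave 338 to 1738 calls against the mean, 169 to 911 against PCP, 178 to 933 against BLSP, 653 to 2784 against 6C3, 987 to 2547 against HEC, 174 to 529 above, 110 to 407 below and 503 to 1067 in IP. The lowest values came without a THY library, except for HEC, where it came without HEC replicate 2. Without 6C3 replicate 1 there were 911 calls against PCP and 933 against BLSP, and without 6C3 replicate 2 there were 1738 against the mean and 2784 against 6C3. Other changes over 1.5 times came without PCP replicate 2 (908 against PCP, 819 against BLSP), 6C3 replicate 2 (886 and 926), THY replicate 2 (726 against 6C3, 1085 against HEC, 223 above, 130 below), THY replicate 1 (1021 against HEC) and HEC replicate 1 (1084). In IP, 1067 came without PCP replicate 2, and each library of PCP, BLSP, 6C3 and HEC left out gave at least 672. Among the list genes Mbp reversed, to 1.605 without BLSP.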

Other observations

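The 6 wild-type input libraries of the stem populations SSC, pBCSP and BCSP give further values for the named genes, with CPM scaled over all 16 libraries and no test made. Ambn was at 0 in all 6 and at 18.03 and 24.6 CPM in THY. Mfap5, Cd34 and Ly6a ranged from 1.68 to 45.3, 13.1 to 56.9 and 2.22 to 20.3 CPM in the stem libraries, and were at 1293 to 1505, 492 to 548 and 259 to 268 CPM in THY. Efemp1 behaved otherwise, at 12.4 to 96.5 CPM in the stem libraries around the 27.7 and 30.04 CPM of THY. Among genes low in THY, Tspan13 was at 157 to 281 CPM in the stem libraries against 4.95 and 7.55 in THY, and Klf15 at 61.2 to 104 against 0.504 and 1.14. Mmp9, at 0 to 6.25 CPM in the stem libraries, overlapped the 0.596 and 2.14 CPM of THY, and Dhh, Xirp1 and Hp overlapped too. Of 370 genes above all 8 others with stem values, 338 (91.4%) were above all stem libraries, beside 24.5% of all genes with such values. Of the 304 below all 8, 198 (65.1%) were below all stem libraries, beside 19.1%.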
